A study of Homo sapiens with 4 samples.

Results

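Rbm4 and Rbm14 are a pair of neighbouring mouse genes for RNA-binding proteins, and they were measured by RNA sequencing in 4 MDA-MB-231 xenograft tumours. They were chosen by symbol, 2 of the 23698 loci listed in each table, with their values in these tumours already known, so the values below are a description and carry no test. MDA-MB-231 is a human triple-negative breast cancer line, and the tumours grew under the skin of Balb/c nude mice. The libraries were a caspase-3 inhibited tumour with docetaxel, a caspase-3 inhibited tumour without treatment, a caspase-3 efficient tumour with docetaxel and a caspase-3 efficient tumour without treatment, 1 tumour each. Inhibition was applied before grafting, by growing the cells with Z-DEVD-FMK, a peptide that blocks caspase-3, and how long it lasted in the tumours is not given in the labels. Docetaxel, a taxane that stabilises microtubules, was given to the mice at 15 mg/kg when tumours measured 12 mm². Actb, a cytoskeletal actin gene used by every cell, was listed at 0 in all 4 libraries, so a listed 0 gives no level. The tables list mouse loci only, and no step that parts human from mouse reads is recorded, so each value covers the mouse host tissue and any human read that aligned there.

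Both proteins bind RNA through RNA recognition motifs. Rbm4, the mammalian relative of the fly protein Lark, also carries a zinc knuckle, and it acts in the choice of alternative exons and in translation. In mouse cells it was described as a promoter of translation of the clock gene Per1. Rbm14, also called CoAA, is a nuclear coactivator with a low-complexity domain, and in human cells it is needed to form paraspeckles, the nuclear bodies built on the long noncoding RNA Neat1. Rbm4b is a close paralogue of Rbm4 that lies beside it.

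In build mm9, Rbm4 was listed on chromosome 19 from 4784293 to 4793877 and Rbm14 from 4800925 to 4811634, so 7047 bp separate them. The paralogue Rbm4b was listed from 4756525 to 4765940, which leaves 18352 bp between it and Rbm4. No other locus of the tables overlapped either member, while in the human genome readthrough transcripts joining the RBM14 and RBM4 genes are known. Of the 102 other loci within 1 Mb of the pair, 73 (71.6%) had values above 0 in 3 libraries or more, as did 1521 of 23594 loci elsewhere (6.45%). The pair thus lies in a stretch of chromosome 19 where most genes could be read.

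The libraries were shallow, and their depths differed. Deposited bounds of low loci fell on whole multiples of a step, as for whole fragments, and the median ratio of these steps over 172 loci put the relative depth at 0.667 in the inhibited docetaxel library, 0.891 in the inhibited untreated library and 1.34 in the efficient docetaxel library, with the efficient untreated library set to 1. The numbers of loci above 0 were 1842, 2000, 2776 and 2255 in the same order. Read in this way, the Rbm4 values rested on about 45.6 fragments in the inhibited docetaxel library, 77.0 in the inhibited untreated library, 36.4 in the efficient docetaxel library and 36.1 in the efficient untreated library. For Rbm14 the estimates were 59.3, 83.0, 50.5 and 57.1 fragments in that order. The Rbm4b values rested on 5.62 to 8.996 fragments, so that gene was barely measured. These estimates assume that each bound stands 2 counting standard deviations from the value, and they are approximate. For Rbm4 in both efficient libraries the bounds were read as 24 and 48 steps, a ratio that many step sizes fit. The steps taken there, 0.647 FPKM with docetaxel and 0.834 FPKM without, do not match the relative depths above. The Rbm4 steps in the inhibited libraries, 1.16 FPKM with docetaxel and 0.865 FPKM without, do match the relative depths. The 36.4 and 36.1 fragments thus probably rest on misread steps and should not be relied on.

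Rbm4 was higher in both inhibited tumours than in both efficient tumours. It stood at 52.7 FPKM (deposited bounds 35.8 to 69.3) in the inhibited docetaxel library and at 66.6 FPKM (49.3 to 83.9) in the inhibited untreated library. In the efficient docetaxel library it was at 23.6 FPKM (15.5 to 31.1), and in the efficient untreated library at 30.1 FPKM (20.03 to 40.1). FPKM counts fragments per length of transcript and number of mapped fragments, and the bounds were taken as 95% intervals that cover counting and assignment but not differences between animals. The inhibited untreated value had bounds above those of both efficient libraries, while the lower bound of the inhibited docetaxel value (35.8 FPKM) lay under the upper bound of the efficient untreated value (40.1 FPKM). Among loci above 0 in its library, Rbm4 ranked 75 of 1842 by FPKM in the inhibited docetaxel library, 45 of 2000 in the inhibited untreated library, 162 of 2776 in the efficient docetaxel library and 97 of 2255 in the efficient untreated library.

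Rbm14 had the same order of libraries. It was at 63.1 FPKM (45.7 to 79.8) in the inhibited docetaxel library and at 66.1 FPKM (50.2 to 81.2) in the inhibited untreated library. The efficient docetaxel library had 26.7 FPKM (18.5 to 34.4) and the efficient untreated library 40.5 FPKM (29.1 to 51.8). Bounds of the inhibited docetaxel and inhibited untreated libraries overlapped almost fully, and both overlapped those of the efficient untreated library, the first by 45.7 against 51.8 FPKM and the second by 50.2 against 51.8 FPKM. The efficient docetaxel value had its whole interval under those of both inhibited libraries. In bulk tissue, fewer cells of a type and less RNA per cell cannot be told apart.

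**Figure D1:**
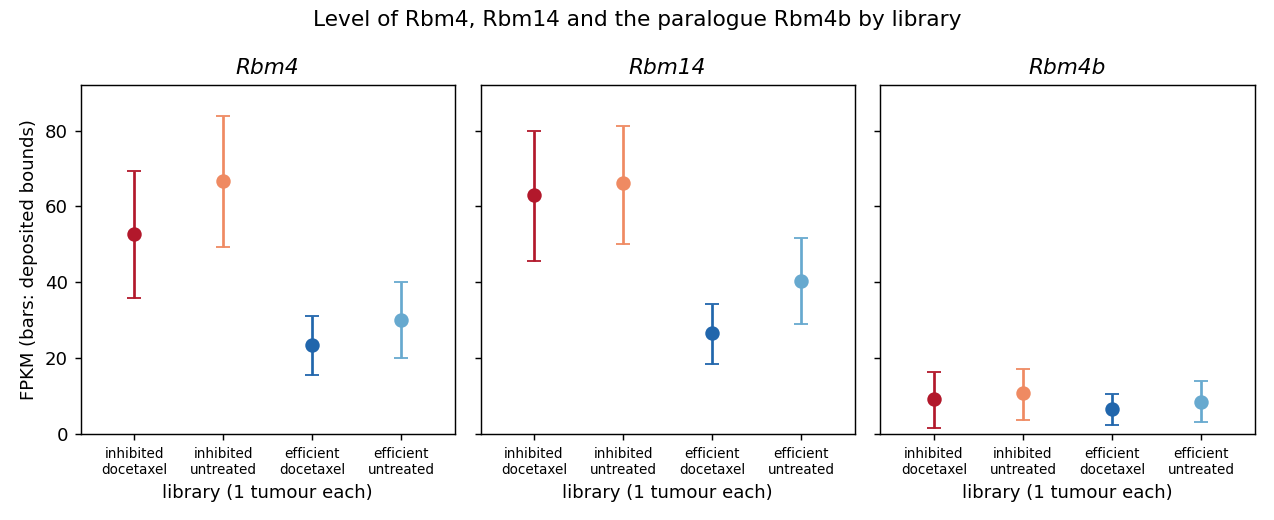
FPKM of Rbm4, Rbm14 and Rbm4b (vertical axis, from 0) in each of the 4 libraries (horizontal axis, 1 tumour each). Points are the deposited values and bars the deposited bounds. Rbm4 was at 52.7 and 66.6 FPKM in the inhibited libraries, against 23.6 and 30.1 FPKM in the efficient libraries, and Rbm4b stayed between 6.59 and 11.0 FPKM.

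The first question was whether tumours grown from inhibited cells differed from efficient tumours under docetaxel. Here both genes were higher in the inhibited library. Rbm4 stood at 52.7 FPKM in the inhibited docetaxel library, against 23.6 FPKM in the efficient docetaxel library, a log2 difference of 1.13 (interval 0.46 to 1.82). Rbm14 stood at 63.1 FPKM, against 26.7 FPKM, a log2 difference of 1.21 (0.63 to 1.81). Differences are of log2(FPKM + 1), and their intervals join the bounds of both libraries in quadrature. The rule for calling a locus higher or lower asked for a 2-fold difference on this scale, bounds apart, status OK in both libraries and 5 FPKM or more in 1 of them. Both genes met that rule, which 28 of 701 loci (3.99%) met as higher and 65 (9.27%) as lower. As the genes were picked with these values known, the 2 calls are given beside the 3.99% and nothing is read from them. Of the 701 loci, 92 had a difference at least as high as that of Rbm4 and 75 one at least as high as that of Rbm14, most of them at loci the rule did not call.

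The same question in untreated tumours drew on the other pair of libraries. Rbm4 stood at 66.6 FPKM in the inhibited untreated library, against 30.1 FPKM in the efficient untreated library, a log2 difference of 1.12 (0.54 to 1.77). It met the rule, which 15 of 597 loci (2.51%) met as higher and 20 (3.35%) as lower. Rbm14 stood at 66.1 FPKM, against 40.5 FPKM, a log2 difference of 0.69 (0.17 to 1.24), and it did not meet the rule, falling short of 2-fold and with bounds that overlapped. The interval of the Rbm14 difference reached past 1, so a 2-fold difference is within what its bounds allow. Scaling to the neighbouring loci put Rbm14 at 1.19, where it met the rule, a setting in which 44 of 635 loci met it as higher. That scaling moved the median difference of all loci compared to 0.54. Median scaling put Rbm14 at 0.80 and quantile normalization at 0.68, and it met the rule in neither.

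The caspase-3 comparisons with and without docetaxel share no library. Of 523 loci compared in both, 23 were called higher under docetaxel and 12 untreated, and 2 were called higher in both, Rbm4 and Utp14b, which is 8.70% of the docetaxel and 16.7% of the untreated calls. Utp14b, a gene related to a factor of small ribosomal subunit assembly, was named after its values were seen, with differences of 1.41 under docetaxel and 1.46 untreated. Acyp2 and Akr1c14 were the 2 loci called lower in both, of 31 under docetaxel and 15 untreated. Neither was above 0 in all 4 libraries, and a listed 0 gives no level, while Rbm4 and Utp14b were above 0 in all 4. Without the criterion of bounds, 10 loci were past 2-fold as higher in both comparisons and 19 as lower in both. These also include loci that were not above 0 in all 4 libraries. Among the higher they were Ahsa2, Fkbp2 and Igfl3, and among the lower they included Retn and Bola3. Ranked by the smaller of the differences, Rbm4 took place 7 and Rbm14 place 26 of the 523.

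**Figure D2:**
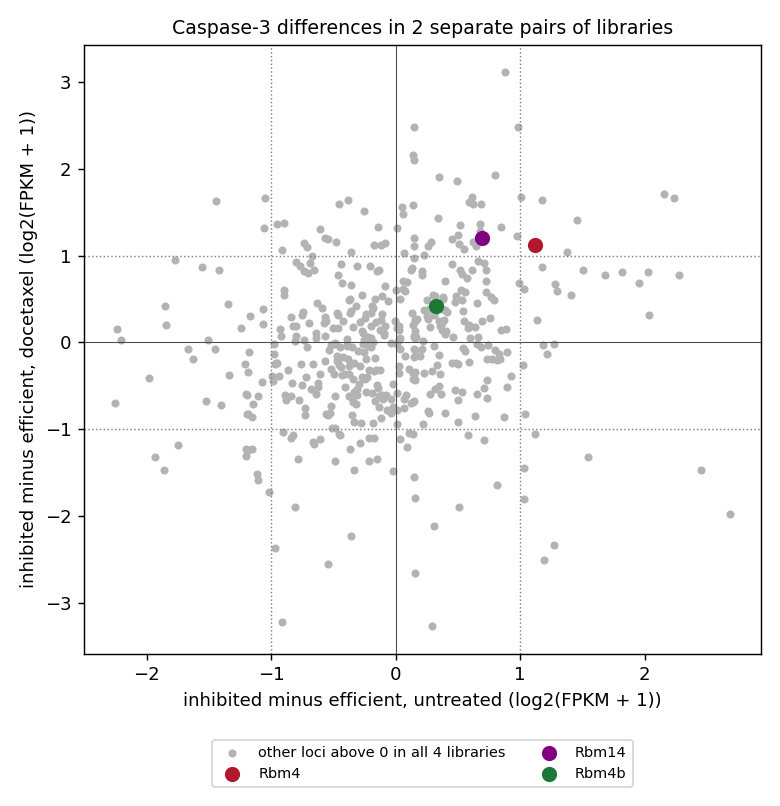
Inhibited minus efficient difference of log2(FPKM + 1) in untreated (horizontal axis) and docetaxel-treated tumours (vertical axis) for loci compared in both and above 0 in all 4 libraries, with Rbm4, Rbm14 and Rbm4b coloured. Dotted lines mark 2-fold. Rbm4 lies past 2-fold on both axes (1.12 and 1.13), and Rbm14 only on the vertical axis (0.69 and 1.21).

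The second question was what docetaxel-treated tumours showed against untreated ones. In efficient tumours Rbm4 stood at 23.6 FPKM with docetaxel, against 30.1 FPKM without, a log2 difference of -0.34 (-1.04 to 0.34). Rbm14 stood at 26.7 FPKM with docetaxel, against 40.5 FPKM without, a log2 difference of -0.58 (-1.19 to 0.0020). Neither met the rule, which 6 of 667 loci (0.900%) met as lower and 54 (8.10%) as higher. The median difference of the 667 loci was 0.34, so relative to it Rbm4 lay at -0.68 and Rbm14 at -0.93. After quantile normalization Rbm14 met the rule as lower, at -1.03, a setting in which 17 of 646 loci met it as lower. Median scaling put Rbm14 at -0.82 and scaling to the neighbours at -0.64, and it met the rule in neither.

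In inhibited tumours Rbm4 stood at 52.7 FPKM with docetaxel, against 66.6 FPKM without, a log2 difference of -0.33 (-0.97 to 0.24). Rbm14 stood at 63.1 FPKM with docetaxel, against 66.1 FPKM without, a log2 difference of -0.07 (-0.61 to 0.45). Neither met the rule here either, where 11 of 630 loci (1.75%) were lower and 24 (3.81%) higher, with a median difference of 0.37. Relative to that median Rbm4 lay at -0.70 and Rbm14 at -0.43. All 4 docetaxel differences of the pair had a negative sign, and their intervals included 0 on the deposited scale. Scaling the libraries moved them further below 0. In efficient tumours median scaling put Rbm4 at -0.58 (-1.27 to 0.11) and Rbm14 at -0.82 (-1.43 to -0.24). Quantile normalization put Rbm4 there at -0.81 (-1.51 to -0.13), and scaling to the neighbours put it at -0.40 (-1.09 to 0.28). In inhibited tumours median scaling put Rbm4 at -0.74 (-1.38 to -0.17) and Rbm14 at -0.48 (-1.02 to 0.04).

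The docetaxel difference of Rbm4 was nearly equal in inhibited and efficient tumours, at -0.33 and -0.34, and the difference between them was 0.01 with an interval of -0.93 to 0.91. For Rbm14 the docetaxel difference was -0.07 in inhibited and -0.58 in efficient tumours, 0.52 apart (-0.28 to 1.32). These intervals are wide, with bounds of -0.93 and 0.91 for Rbm4 and up to 1.32 for Rbm14, so equal responses are not shown.

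The FPKM ratio of Rbm14 to Rbm4 within a library does not change when all values of the library are multiplied by the same factor. Quantile normalization can change it. It was 1.20 in the inhibited docetaxel library, 0.992 in the inhibited untreated library, 1.13 in the efficient docetaxel library and 1.35 in the efficient untreated library. As differences of log2(FPKM + 1) the ratios were 0.26 (-0.34 to 0.89), -0.01 (-0.52 to 0.51), 0.18 (-0.46 to 0.85) and 0.42 (-0.20 to 1.08) in that order. The intervals of all 4 include 0, so no order of the genes in level per length could be read, and each interval holds the other 3 values.

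The paralogue Rbm4b was lower than Rbm4 throughout. It was at 9.19 FPKM (1.63 to 16.3) in the inhibited docetaxel library, 11.0 (3.67 to 17.1) in the inhibited untreated library, 6.59 (2.44 to 10.6) in the efficient docetaxel library and 8.57 (3.27 to 14.2) in the efficient untreated library. Its order of libraries matched that of Rbm4 and Rbm14, but all 4 intervals overlapped, and the inhibited minus efficient difference was 0.42 (-1.62 to 1.80) under docetaxel and 0.33 (-1.19 to 1.63) untreated. The ratio of Rbm4b to Rbm4 was 0.174 and 0.165 in the inhibited docetaxel and untreated libraries, against 0.280 and 0.285 in the efficient docetaxel and untreated libraries. As differences of log2(FPKM + 1) these were -2.40 (-4.39 to -1.46) and -2.49 (-3.90 to -1.76), against -1.69 (-2.90 to -0.86) and -1.70 (-2.93 to -0.83). All these intervals overlap, so no difference of this ratio between libraries could be read. No source used here says how reads that match both paralogues were assigned, which leaves the split between them uncertain.

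The loci around the pair were then set beside all loci. Within 1 Mb, with the pair left out, 28 of 64 loci compared under docetaxel were above 0 in the inhibited minus efficient difference and 36 below, with a median of -0.07, beside 330 of all 701 loci above 0 and a median of -0.05. Untreated, 19 of 61 were above 0 and 42 below, with a median of -0.27, beside 285 of all 597 loci above 0 and a median of -0.09. No neighbour was called higher under docetaxel, while 3 of the 64 were lower, namely Cd248, Dpp3 and Pcx, all named here for their calls. Of all 701 loci, 28 (3.99%) were called higher and 65 (9.27%) lower. Untreated, 1 of the 61 was called higher (Lrfn4) and 1 lower (Ndufs8), beside 15 (2.51%) and 20 (3.35%) of all 597 loci. With docetaxel against without, 4 of 60 neighbours were called higher in inhibited tumours, beside 24 of all 630 loci. In efficient tumours 2 of 62 were, beside 54 of all 667, and no neighbour was called lower in either. Counted from the highest difference among the loci within 1 Mb, Rbm14 took place 5 and Rbm4 place 7 of 66 under docetaxel, and Rbm4 took place 3 and Rbm14 place 8 of 63 untreated.

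**Figure D3:**
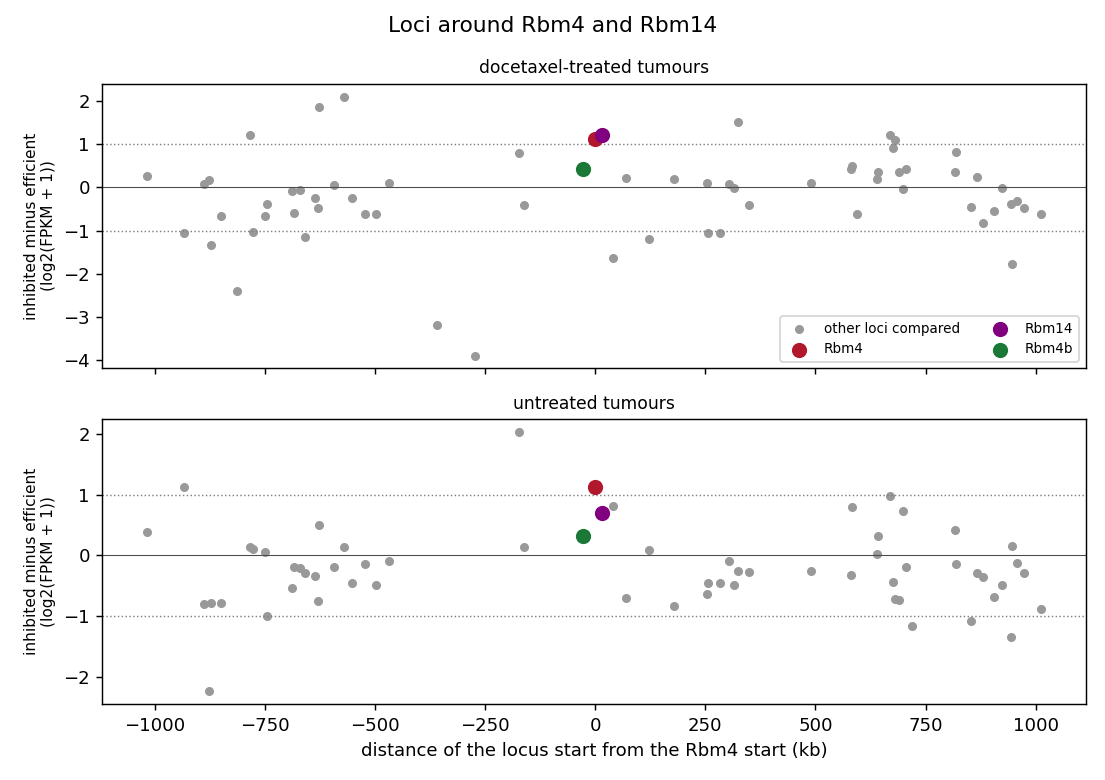
Inhibited minus efficient difference of log2(FPKM + 1) (vertical axes) of loci compared within 1 Mb of the pair, against the distance of their start from the Rbm4 start in kb (horizontal axis), with docetaxel above and untreated below. Dotted lines mark 2-fold. The neighbours' medians were -0.07 with docetaxel and -0.27 untreated, and both members lie above them in each panel.

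Besides Rbm4b, the nearest loci on each side had other orders of libraries or were near or at 0. Ccs, the copper chaperone gene of superoxide dismutase on the far side of Rbm14, was at 6.99 FPKM (0 to 14.1) in the inhibited docetaxel library, 13.1 (4.23 to 23.3) in the inhibited untreated library, 23.9 (11.3 to 35.2) in the efficient docetaxel library and 6.99 (0 to 13.2) in the efficient untreated library. Ctsf, encoding the lysosomal protease cathepsin F, was at 20.2, 3.78, 17.2 and 6.74 FPKM in the same order, high in both docetaxel libraries. On the other side Spnb3, a brain spectrin gene, reached 0.496 FPKM at most and Gm960 was listed at 0 in all 4 libraries. Ccdc87, between Ccs and Ctsf, was above 0 only in the efficient untreated library, at 0.673 FPKM.

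Loci with the most similar pattern were sought as the smallest root mean square distance between log2(FPKM + 1) values centred on each locus's mean over the 4 libraries. Candidates were 602 loci with status OK and above 0 in all 4 libraries and at 5 FPKM or more in 1. Loci under 500 bp, clone names ending in Rik, Gm predicted genes, microRNAs and small nucleolar RNAs were left out. For Rbm14 the nearest were Dna2 (distance 0.03), Smcr7l (0.06), Rimklb (0.10), Impdh1 (0.10) and Eif5a (0.11), with Rbm4 at place 9 (0.15). Smcr7l, encoding a mitochondrial fission receptor, was at 48.9 and 49.0 FPKM in the inhibited docetaxel and untreated libraries, against 22.1 and 31.0 FPKM in the efficient docetaxel and untreated libraries. Eif5a, a translation factor gene, was at 162 and 182 FPKM, against 85.4 and 111 FPKM in the same order. Dna2, a nuclease and helicase gene, lay within 1.92 to 6.28 FPKM.

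For Rbm4 the nearest were Agbl2 (0.13), Meis1 (0.15), Rbm14 (0.15), Xrcc3 (0.16) and Ccdc56 (0.16). Agbl2, a tubulin carboxypeptidase gene, was at 10.1 FPKM (4.32 to 15.5) and 16.5 FPKM (10.3 to 22.6) in the inhibited docetaxel and untreated libraries, against 5.09 FPKM (2.15 to 7.73) and 6.72 FPKM (2.88 to 10.4) in the efficient docetaxel and untreated libraries. Meis1 and Xrcc3 had lower bounds of 0 in 3 of the 4 libraries each, so their likeness rests on few fragments. The order of the 4 libraries seen in Rbm4 and Rbm14 occurred in 22 of 642 other loci above 0 in all libraries (3.43%), and the reverse order in 50 (7.79%).

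Other RNA-binding motif genes could hardly be read. Of 42 loci of that family, 28 were listed at 0 in all 4 libraries and 7 were above 0 in at least 3. In each comparison 4 were compared, and the only calls were those of the pair. The family's median difference was 0.98 for inhibited minus efficient under docetaxel and 0.51 untreated, but the pair makes up 2 of the 4 values. Rbm38, a p53 target whose protein acts on mRNA stability, was at 9.51 FPKM (1.68 to 16.8) in the inhibited docetaxel library, 2.85 (0 to 6.30) in the inhibited untreated library, 4.88 (0.838 to 8.38) in the efficient docetaxel library and 5.07 (1.12 to 8.98) in the efficient untreated library. Rbm12b was at 4.85, 2.54, 1.96 and 1.29 FPKM in that order, with overlapping bounds, and Rbm28, a nucleolar protein gene, was listed at 0, then 1.12, 3.78 and 4.50 FPKM.

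Of 27 loci on the paraspeckle list, 19 were listed at 0 in all 4 libraries and 5 were compared in each comparison. Besides Rbm14 under docetaxel, the only call was Neat1, lower in the inhibited untreated library. Neat1 was at 62.3 FPKM (46.1 to 78.1) in the inhibited docetaxel library and 31.6 (21.8 to 40.8) in the inhibited untreated library, against 102 (83.3 to 117) in the efficient docetaxel library and 71.0 (55.8 to 85.9) in the efficient untreated library. Malat1, the nuclear speckle RNA encoded beside it, was at 81.5 and 49.8 FPKM in the inhibited docetaxel and untreated libraries, against 125 and 92.8 FPKM in the efficient docetaxel and untreated libraries. Both RNAs thus had the reverse order of Rbm4 and Rbm14, highest in the efficient docetaxel library and lowest in the inhibited untreated library. That reverse order occurred in 50 of the 642 other loci above 0 in all libraries (7.79%). For both RNAs the bounds of the inhibited docetaxel and efficient untreated values overlapped, for Malat1 69.3 to 93.7 against 81.6 to 104 FPKM. Ewsr1, an RNA-binding protein gene of the FET family, was at 88.4 and 105 FPKM in the inhibited docetaxel and untreated libraries, against 72.3 and 61.6 FPKM in the efficient ones, without meeting the rule. Tardbp stayed between 4.62 and 6.44 FPKM.

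**Figure D4:**
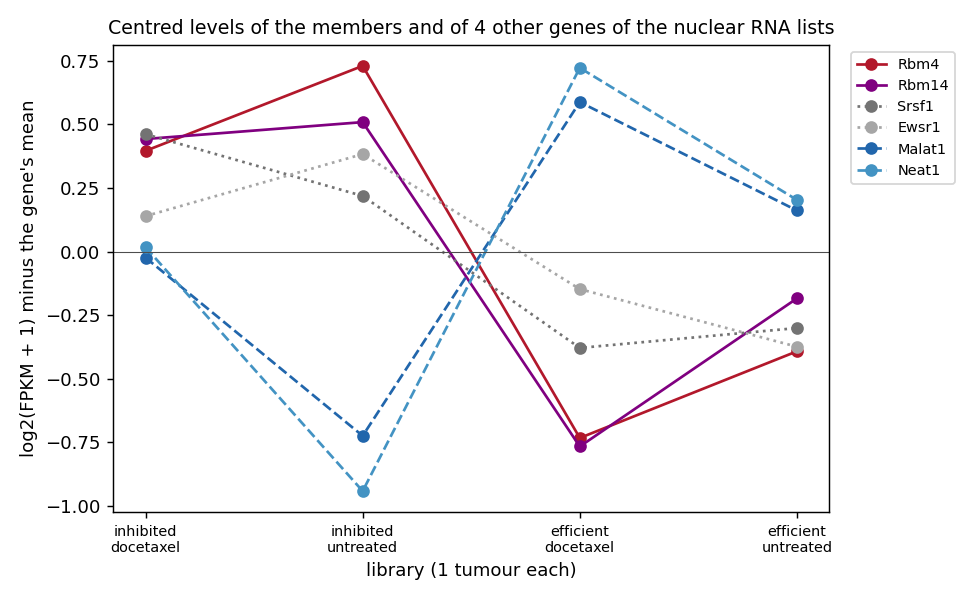
log2(FPKM + 1) minus the gene's own mean over the libraries (vertical axis) in each of the 4 libraries (horizontal axis, 1 tumour each) for Rbm4, Rbm14, Srsf1, Ewsr1, Malat1 and Neat1. Lines only join the points of a gene. In the inhibited untreated library Rbm4 stood at 0.73 and Neat1 at -0.94, against -0.73 and 0.72 in the efficient docetaxel library.

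Splicing factors of the SR and hnRNP groups gave 1 well-read gene. Of 16 SR loci 12 were listed at 0 throughout, and Srsf1, which selects splice sites through exonic enhancers, was at 101 FPKM (84.8 to 118) and 85.5 FPKM (72.2 to 98.8) in the inhibited docetaxel and untreated libraries, against 56.2 FPKM (47.5 to 65.1) and 59.4 FPKM (49.5 to 69.6) in the efficient docetaxel and untreated libraries. Its bounds were apart between inhibited and efficient libraries in both comparisons, with differences of 0.84 under docetaxel and 0.52 untreated, short of 2-fold. Of 25 hnRNP loci 19 were listed at 0 throughout, and Syncrip (8.81 to 12.7 FPKM) and Hnrnpa2b1 (4.32 to 10.0 FPKM) did not meet the rule in any comparison.

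Of 24 loci for genes described as acting with Rbm4 or Rbm14, 15 were listed at 0 throughout, at most 3 entered a comparison and none met the rule. Eif4a1, an RNA helicase of translation initiation, was at 53.8 and 42.9 FPKM in the inhibited docetaxel and untreated libraries, against 44.8 and 46.6 FPKM in the efficient docetaxel and untreated libraries, all with overlapping bounds. Tnpo3, an importin that carries splicing factors to the nucleus, stayed between 4.75 and 8.79 FPKM. Per1 reached 0.503 FPKM at most, so the clock gene named above gave no reading.

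Markers of other cell types were summed in each library beside the pair. The summed FPKM of the erythroid list, all of it alpha globin with 7 of 10 loci listed at 0 throughout and beta globin among those, was 427 in the inhibited docetaxel library and 935 in the inhibited untreated library, against 1766 in the efficient docetaxel library and 207 in the efficient untreated library. The adipocyte sum was 12.4 and 11.6 FPKM in the inhibited docetaxel and untreated libraries, against 429 and 12.6 FPKM in the efficient docetaxel and untreated libraries, the high value being Retn, with Adipoq and Fabp4 listed at 0. Cidea, also on that list, was at 12.4 and 11.6 FPKM, against 9.76 and 2.07 FPKM in the same order. The fibroblast sum, nearly all Col1a2, was 579 and 371 FPKM, against 515 and 369 FPKM in the same order, with 6 of 8 loci listed at 0. Endothelial, macrophage and dividing-cell sums reached 3.30 FPKM at most, skeletal muscle and keratinocyte loci were listed at 0 throughout, and of the carcinoma list only Cldn4 was above 0, at 5.71 FPKM in the efficient docetaxel library. The high erythroid sum and the high Retn value in the efficient docetaxel library coincided with the lowest Rbm4 and Rbm14 values. The erythroid sum was next highest, at 935 FPKM, in the inhibited untreated library, where Rbm4 and Rbm14 were highest. The part of these cell types in the values of the pair was not tested.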

How the data were processed

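RNA of each tumour was sequenced on a MiSeq. The labels' protocols give both removal of ribosomal RNA and selection of mRNA, and the description field of the labels gives removal of ribosomal RNA. TopHat and Cufflinks were used with build mm9, per the submitters' processing notes; no source used here gives their versions. Each table gives a deposited FPKM per locus, its bounds below and above, and a status, per the file headers. Depth in fragments is not given and was estimated from the steps between bounds, matched within 2e-05.

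Tables were joined by symbol and position, since their row order differs, and starts were raised by 1. In each library 285 loci had status LOWDATA and entered no comparison. Differences are of log2(FPKM + 1), a scale that shrinks those of low genes. Each group was 1 library, so no test was made. The intervals were taken to cover counting and assignment but not differences between animals. The call rule was tested on simulated data with changes larger than those of the pair and no differences between animals. It was not tested at differences of the pair's size. Named genes are the pair, the 3 nearest loci on each side, the 5 most similar loci per member and up to 6 members per gene list. Loci called in both caspase-3 comparisons and the called loci near the pair were named after their values were seen. Members, lists and rules were chosen with earlier results of these data known. Alternatives were a pseudocount of 0.1 or 5, a minimum of 1 or 20 FPKM or none, median scaling (344 loci), quantile normalization (3925 loci), scaling to 65 neighbours within 1 Mb, no interval criterion and a 3-fold threshold. Python 3.11.15, numpy 2.4.6, pandas 2.3.3 and matplotlib 3.10.9 were used.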

Additional observations from a re-analysis of the deposited data

How the results depend on the processing

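Of the 10 alternatives, those of the pseudocount and of scaling change the size of a difference and the others only the call rule. No sign of the 8 member differences changed under the pseudocounts or scalings run. Inhibited minus efficient, Rbm4 ranged from 1.01 to 1.36 under docetaxel and from 1.03 to 1.62 untreated, and Rbm14 from 1.10 to 1.44 and from 0.64 to 1.19. Docetaxel minus untreated, Rbm4 ranged from -0.74 to -0.31 in inhibited and from -0.81 to -0.30 in efficient tumours, and Rbm14 from -0.48 to -0.06 and from -1.03 to -0.52. A 3-fold threshold ended the calls of Rbm4 (1.13 under docetaxel, 1.12 untreated) and Rbm14 (1.21 under docetaxel). Scaling to the neighbours brought Rbm14 past the rule untreated (1.19), and quantile normalization brought it past the rule as lower with docetaxel in efficient tumours (-1.03). The difference of the docetaxel differences ranged from -0.26 to 0.12 for Rbm4, changing sign, and from 0.24 to 0.61 for Rbm14. The Rbm14 to Rbm4 ratios stayed within their intervals.

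The counts of all loci called moved more. Only the moves of larger ratio are listed, and settings not named also moved many of the counts. For docetaxel in efficient tumours (54 higher, 6 lower), higher calls were 24 at a minimum of 20 FPKM, 141 without the bounds and 34 with loci above 0 in both libraries, a setting added after seeing the data. Moves of smaller ratio here included 80 at 1 FPKM or none, 39 after median scaling, 36 after quantile normalization and 38 at 3-fold. Lower calls there were 2 at pseudocount 5, 11 at a minimum of 1 FPKM or none, 1 at 20 FPKM, 14 after median scaling, 17 after quantile normalization, 46 without the bounds and 3 at 3-fold. For docetaxel in inhibited tumours (24 higher, 11 lower), higher calls were 12 at 20 FPKM, 12 after median scaling, 15 after quantile normalization, 14 after neighbour scaling, 127 without the bounds and 15 at 3-fold. Lower calls were 19 at 1 FPKM or none, 1 at 20 FPKM, 19 after median scaling, 18 after quantile normalization, 18 after neighbour scaling, 57 without the bounds and 4 with loci above 0 in both libraries. Untreated, inhibited against efficient (15 higher, 20 lower), higher calls were 7 at 20 FPKM, 44 after neighbour scaling and 60 without the bounds. Lower calls were 34 at 1 FPKM or none, 5 at 20 FPKM, 8 after neighbour scaling, 82 without the bounds and 12 with loci above 0 in both. Under docetaxel (28 higher, 65 lower), higher calls were 108 without the bounds and 13 at 3-fold, and lower calls 112 at 1 FPKM or none, 21 at 20 FPKM, 132 without the bounds and 30 with loci above 0 in both. By construction, counts can only fall with a stricter minimum or threshold or with loci above 0 in both libraries required. They can only rise with a lower minimum or without the bounds. The cause of the other changes was not tested. Neighbour scaling moved the median difference of all loci to 0.54 untreated and 0.21 under docetaxel, from -0.09 and -0.05, so the higher calls it adds include that shift. With scaling, the share of higher among called loci for docetaxel was 73.6% (median), 67.9% (quantile) and 86.3% (neighbours) in efficient tumours, against 90.0% as deposited, and 38.7%, 45.5% and 43.8% in inhibited tumours, against 68.6%.

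No paired analysis was possible because each group was 1 library, which also leaves no replicate to omit. Depth limits Rbm4b, which rested on few fragments.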
